A study of Homo sapiens with 18 samples.

Results

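The sites described here are intergenic stretches of chromatin where RNA polymerase II (Pol II) phosphorylated at serine 2 of its C-terminal domain (Ser2P) was called in both IAA libraries and in neither Control library. A site is a Ser2P peak of IAA replicate 1 that shared at least 1 bp with a peak of IAA replicate 2, overlapped no Ser2P Control peak and no input peak, and had its summit over 5 kb outside every RefSeq gene of any biotype on chromosomes 1 to 22 and X. There were 3944 sites among 99275 peaks of Ser2P IAA replicate 1 on these chromosomes, of which 68704 were shared by both IAA libraries and free of input peaks. The sites were chosen by measured values, the Ser2P peak calls of IAA and Control, and by gene distance, so both are given as a description with no test.

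All libraries came from HCT116, a human colon cancer cell line, with an auxin-inducible degron on INTS11 (INTS11-AID), so IAA and Control libraries carry the same tagged allele. IAA is auxin, which sets off degradation of the tagged protein. The labels' protocols give 1 text for every sample, with 14 h in medium free of serum, 500 µM IAA for 1 h, 100 ng/µl EGF for 30 min and 2000 U IFN-beta for 1 h, and do not say which library received what, so groups follow the titles. The IAA and Control groups each had 2 numbered libraries for Ser2P, for Pol II and for Pol II phosphorylated at tyrosine 1 (Tyr1P), and 4 more Pol II libraries carried no number. Nothing in the labels says that numbered libraries came from separate cultures, so p-values measure only the spread between these libraries, which may be technical. Cells without the tag were not analysed here, and the labels do not say whether the tagged line is a single clone.

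Ser2P is placed on the C-terminal domain by kinases that act during elongation, and within genes it is highest towards the 3′ end and beyond it, where transcripts are cut and polymerase terminates. Integrator is a complex that cleaves nascent transcripts through its endonuclease subunit INTS11, at small nuclear RNA genes, near promoters and at enhancers, and so ends transcription there. Tyr1P is a second mark on the same domain, found near promoters and at enhancers in mammalian cells. Intergenic Pol II in human cells includes polymerase at enhancers, at unannotated transcripts and past the ends of genes.

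Depth, estimated from the deposited fold and p as fragments per kb, was 9.34 and 10.5 in Ser2P IAA, against 13.6 and 3.28 in Ser2P Control. It was 5.04 and 6.06 in Pol II IAA, against 2.94 and 5.72 in Pol II Control, and 7.44 and 7.02 in Tyr1P IAA, against 6.59 and 6.98 in Tyr1P Control. The Ser2P lists held 99275 and 88783 peaks with IAA, against 37304 and 15377 in Control. The longer lists were thus not those of the deepest Ser2P library, Control replicate 1. Control replicate 2 was the shallowest Ser2P library and had the shortest list. The libraries are bulk, so fewer cells with polymerase at a site and less polymerase per cell cannot be told apart.

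Of the 5099 shared Ser2P peaks over 5 kb outside every gene, 3944 (77.3%) had no Control peak, beside 63.4% of all 68704 shared peaks. The share without a Control peak was 46.9% (5934 of 12653) up to 5 kb outside a gene and 66.0% (33653 of 50952) inside genes. The remaining 1155 intergenic peaks, also called in either Control library, are the comparison set below. Control replicate 1 on its own gave 1136 of these peaks, and Control replicate 2 on its own 372. With only Control replicate 1 in the rule there were 3963 sites, and with only Control replicate 2 there were 4727. The split between the sites and the comparison set thus rests mostly on Control replicate 1. In the other direction, 14218 peaks were shared by both Ser2P Control libraries, 407 of them intergenic by the same limit, and 43 of these had no IAA peak. The share without an IAA peak over all 14218 was not computed. The IAA lists were also much longer (99275 and 88783 peaks, against 37304 and 15377 in Control), so these directions are not compared. At the 5 kb limit the nearest sites inside it lay 5002, 5003 and 5005 bp from MED10, LOC105372501 and ZFAND3-DT. The nearest peaks just outside the rule lay 4999, 4999 and 4996 bp from FBLL1, PCBD1 and LOC105373888.

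The sites were modest peaks. Their deposited fold enrichment in IAA replicate 1 had a median of 4.26 and ran between 1.40 and 16.4, against a median of 5.30 in the comparison set. The deposited −log10 q had a median of 8.18 at the sites and 17.6 in the comparison set. These fold and −log10 values are the authors' own for each peak and are used only within their list. By p, 47.5% of the sites ranked in the lower 50% of that list, against 13.6% of the comparison set.

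Solving the fold and p for fragments gave a median of 24 stacked fragments at the summits of the sites over a local background of 4.31, against 45 over 7.06 in the comparison set. The middle of the sites, between the 25th and 75th percentiles, lay at 17 to 41 fragments. The summits of replicate 1 and replicate 2 were a median of 47 bp apart, within 100 bp at 75.8% of sites and within 200 bp at 89.1%. In replicate 2 the sites had a median fold of 4.01, a −log10 q of 8.15 and 27 stacked fragments.

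**Figure D1:**
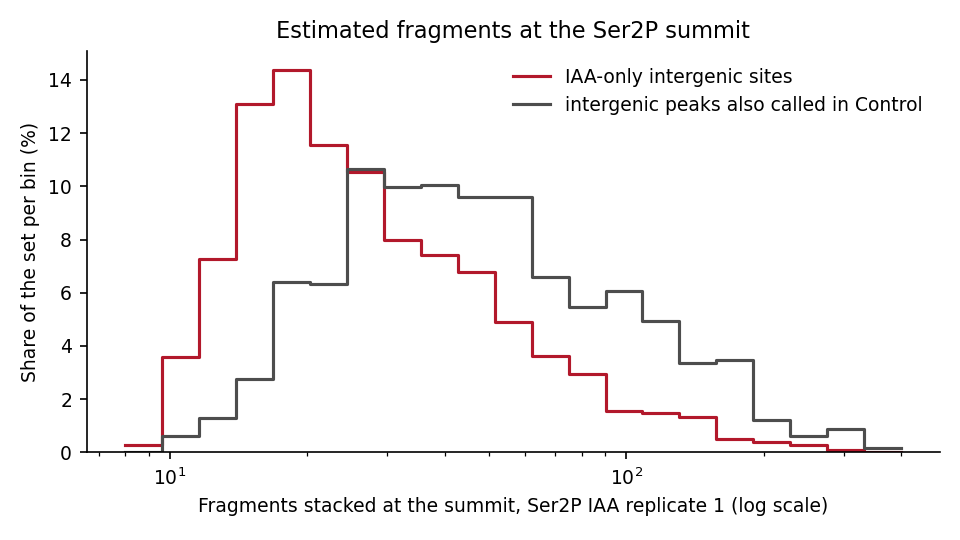
Fragments stacked at the Ser2P summit in IAA replicate 1 (x axis, log scale), estimated from the deposited fold and p, as the share of each set per bin (y axis, percent). The 3944 sites (red line) have a median of 24 fragments and the 1155 intergenic peaks also called in Control (grey line) a median of 45, and the distributions overlap over most of their range.

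A Ser2P Control peak of either library lay within 1 kb of 424 sites (10.8%) and within 5 kb of 1400 (35.5%). For Control replicate 1 the counts were 416 and 1387 sites, and for Control replicate 2 they were 99 and 474.

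Most sites had no peak of Pol II or Tyr1P. At 3100 of 3944 sites (78.6%) none of the 12 Pol II and Tyr1P libraries had an overlapping peak, against 256 of 1155 (22.2%) in the comparison set. At 2542 sites (64.5%) none had a peak within 1 kb. Among the sites with such a peak, 570 had both Pol II and Tyr1P, 189 Tyr1P only and 85 Pol II only, and 67 had a peak in all 12 libraries. The Pol II and Tyr1P lists were not used to choose the sites.

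Pol II peaks overlapped 3.83% (151 sites) and 6.06% (239 sites) of the 3944 sites in the IAA libraries, against 6.59% (260 sites) and 8.77% (346 sites) in Control. Both IAA values were below both Control values. The mean was 4.94% ± 1.58 with IAA and 7.68% ± 1.54 in Control (SD, n = 2 each), a difference of -2.74 percentage points (two-sided exact permutation p = 0.333, the smallest that 2 libraries against 2 allow). Without Ser2P Control replicate 1 in the rule it was -5.52. Leaving out 1 Pol II library moved it to between -3.85 and -1.62, the last without Pol II IAA replicate 1 and -1.65 without Pol II Control replicate 2. With the 4 Pol II lists cut to equal length by p, 18125 peaks each, the values were 3.83% and 3.65% with IAA, against 3.80% and 4.03% in Control, a difference of -0.18 percentage points at an exact permutation p of 0.667. At equal list length the groups overlapped.

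Tyr1P peaks were the more frequent. They overlapped 12.3% (485 sites) and 10.5% (416 sites) with IAA, against 13.6% (536 sites) and 13.3% (523 sites) in Control. Both IAA values were again below both Control values. The mean was 11.4% ± 1.24 with IAA and 13.4% ± 0.233 in Control (SD, n = 2 each), a difference of -2.00 percentage points (two-sided exact permutation p = 0.333, again the smallest possible). With the 4 Ser2P lists cut to equal length the direction turned, to 10.3 percentage points at 190 sites. Without Tyr1P IAA replicate 2 the difference was -1.13, and without Ser2P Control replicate 1 in the rule -3.46. With Tyr1P lists of equal length, 30343 peaks each, the values were 11.1% and 10.5% with IAA, against 11.2% and 11.3% in Control, a difference of -0.38 percentage points with the same order of groups.

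The sites overlapped Pol II and Tyr1P peaks less often than the comparison set did in every numbered library. Pol II overlapped 3.83% and 6.06% of the sites in the IAA libraries, against 25.5% and 33.9% of the comparison set, a difference of -21.6 and -27.8 percentage points. Tyr1P overlapped 12.3% and 10.5% of the sites with IAA, against 54.0% and 53.2% of the comparison set. In Control, Pol II overlapped 49.2% and 54.1% of the comparison set and Tyr1P 64.0% and 66.1%. The comparison set also had stronger and wider Ser2P peaks, with a median width of 483 bp, against 332 bp at the sites. Width was not matched. With both sets held to the −log10 q of the weakest 25% of the sites, 988 sites and only 70 peaks of the comparison set remained. Pol II overlapped 2.33% and 3.14% of these sites with IAA, against 10.0% and 20.0% of the 70 peaks. The mean Pol II difference under IAA was then -12.3 percentage points, against -24.7 for the whole sets. This difference rests on both Pol II IAA libraries alone and was not tested.

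Low overlap was not particular to intergenic sites. Among the IAA-only Ser2P peaks up to 5 kb outside a gene, Pol II overlapped 4.40% and 6.62% with IAA, against 5.46% and 6.89% in Control, and Tyr1P 11.4% and 10.1% with IAA, against 11.0% and 11.3% in Control. Among those inside genes, Pol II overlapped 2.89% and 4.23% with IAA, against 3.74% and 4.77% in Control, and Tyr1P 6.92% and 6.33% with IAA, against 7.40% and 7.43% in Control. The values of the sites thus lay near those of the IAA-only peaks just outside genes and above those inside genes.

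**Figure D2:**
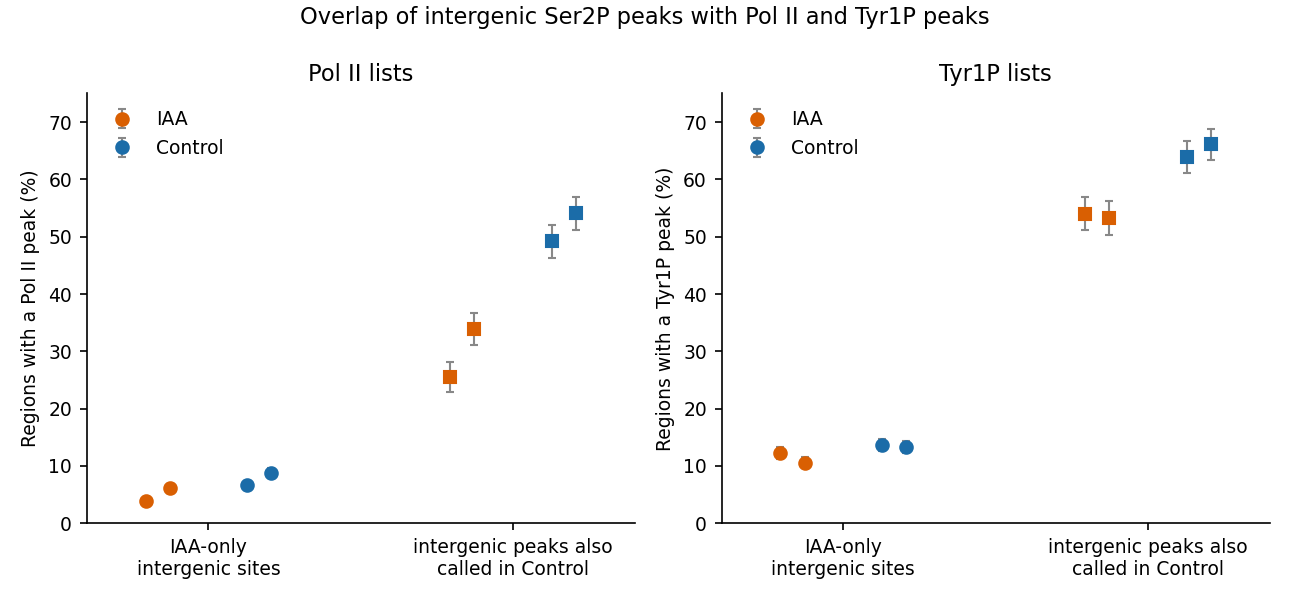
Share of regions with an overlapping Pol II or Tyr1P peak (y axis, percent) in each numbered IAA and Control library (points, with 95% exact binomial intervals as bars), for the sites (circles) and for the intergenic peaks also called in Control (squares). At the sites the Pol II values are 3.83% and 6.06% with IAA and 6.59% and 8.77% in Control, and every value of the comparison set lies above those of the sites.

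The unnumbered Pol II libraries overlapped more sites than the numbered ones did, and their lists were longer. They held 27968 to 35840 peaks, against 18125 to 27733 in the numbered Pol II lists. Their depth was 6.43 to 8.05 fragments per kb, against 2.94 to 6.06. By label the overlap was 9.51% for IAA+EGF, 11.2% for IAA, 9.38% for EGF and 11.8% for Control, with 1 library each and so no spread. EGF is epidermal growth factor. For the label IAA and the label EGF the title disagrees with the name of the deposited list, so these libraries are not compared.

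Few sites switched their Pol II or Tyr1P call with IAA. A Pol II peak in both IAA and neither Control library was found at 31 sites (0.786%), beside 0.630% of all shared Ser2P peaks, and the reverse at 85 sites (2.16%), beside 3.09%. For Tyr1P the counts were 58 sites (1.47%), beside 1.00%, and 110 sites (2.79%), beside 2.66%. All 4 numbered libraries had a Pol II peak at 69 sites and a Tyr1P peak at 270. These are 1.75% and 6.85% of the sites, beside 16.5% and 24.3% of all shared Ser2P peaks. No numbered library had a Pol II peak at 3471 sites (88.0%), beside 71.6% of all shared peaks, or a Tyr1P peak at 3185 (80.8%), beside 63.7%. The shares of gained and lost calls at the sites lay near those of all shared Ser2P peaks, whereas sites with a peak in all 4 libraries made up a smaller share.

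Stronger Ser2P peaks overlapped Pol II and Tyr1P more often. In the strongest 25% of sites by −log10 q, Tyr1P overlapped 19.1% and 15.6% with IAA, against 15.3% and 14.8% in Control, and Pol II 5.88% and 9.84% with IAA, against 7.71% and 9.63% in Control. In the weakest 25%, Tyr1P overlapped 8.50% and 7.19% with IAA, against 12.3% and 11.3% in Control, and Pol II 2.33% and 3.14%, against 4.96% and 6.78%. Between the strongest and weakest sites the order of IAA and Control for Tyr1P thus turned. The split used Ser2P values of the rule and is a description.

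Among the sites with a gained Pol II call, the strongest by −log10 q lay at chr6:30807272-30808036 (hg38) between HCG20 and the lncRNA LINC00243, with a Ser2P fold of 4.66 in IAA replicate 1 and 4.85 in replicate 2. It had Pol II and Tyr1P peaks in both numbered IAA libraries and in no Control library. None of the unnumbered Pol II libraries, with or without IAA in the label, had a peak there. The nearest protein-coding genes were IER3, an immediate early response gene, and DDR1, a collagen receptor kinase, 63.0 and 73.4 kb away. Distances of named regions run from the edge of the region to its flanking genes, and from the nearest summit to protein-coding genes beyond those. The next lay at chr17:43316472-43317464 between 2 annotated small nuclear RNA genes, LOC124904144 and LOC124904147, at 16.2 and 50.4 kb, with a fold of 5.18 and 5.34. It had Tyr1P peaks in all 4 numbered libraries. The site at chr1:15798286-15799475, near UQCRHL, and the site at chr10:72322110-72322895 completed the 4 named by this rule. The last lay between DDIT4, a stress-induced inhibitor of mTOR signalling, and DNAJB12, a membrane co-chaperone, whose 3′ ends both face the site, at 46.1 and 9.97 kb. Of these 4 sites, those on chr17 and chr10 had a peak in at least 1 unnumbered Pol II library, and those on chr6 and chr1 had none.

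Among the sites with a gained Tyr1P call, the chr6 site again came first. It was followed by chr1:12630176-12631350, before the 5′ end of DHRS3, a retinaldehyde reductase, and by chr3:195631190-195632995, between the mucin pseudogene MUC20P1 and LOC105374297. The fourth lay at chr9:134320509-134321226, 5.23 kb before the 5′ end of RXRA, which encodes a nuclear receptor for retinoids, and had the highest stack of all sites, 325 fragments. The chr1 and chr3 sites had no Pol II peak in any numbered library.

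The 6 sites with the highest fold had no Pol II or Tyr1P peak in any of the 12 libraries. The highest, at chr2:200296749-200297103, had a fold of 16.4 in IAA replicate 1 and 12.4 in replicate 2, with 73 stacked fragments, 8.78 kb before the 5′ end of SPATS2L. A further 3 sites, at chr2:186227127-186227497, chr4:106498417-106498847 and chr16:25612200-25612570, shared a fold of 15.1 with 45 fragments each over the lowest background of the library. The fifth, at chr2:226623979-226624371, had a fold of 14.2 and 8.83, 34.3 kb from MIR5702, on the side of the 3′ end of IRS1, an adaptor of the insulin receptor 107 kb away. The sixth, at chr12:27514892-27515279 with 13.8 and 9.34, lay between SMCO2 and PPFIBP1.

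Most sites lay within 20 kb of a gene. The median distance of a summit to the nearest gene end was 10.1 kb (25th to 75th percentile 6.90 to 17.3 kb), against 10.2 kb in the comparison set, and to the nearest protein-coding gene 16.2 kb, against 17.4 kb. Of the sites 1951 (49.5%) lay at 5 to 10 kb, 1169 at 10 to 20 kb, 666 at 20 to 50 kb, 122 at 50 to 100 kb and 36 farther. The farthest summit lay 2666 kb from a gene, against 3195 kb in the comparison set. The limit of 5 kb sets the low end of these distances. The nearest gene was protein-coding at 1965 sites (49.8%), an lncRNA at 1264 (32.0%) and a pseudogene at 558 (14.1%). In the comparison set these shares were 47.4%, 29.6% and 16.5%. It was a miRNA gene at 46 sites (1.17%), a small nucleolar RNA gene at 23 (0.583%) and a small nuclear RNA gene at 7 (0.177%). The comparison set had 1.65%, 0.779% and 0.519%. The sites shared 2519 nearest genes.

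**Figure D3:**
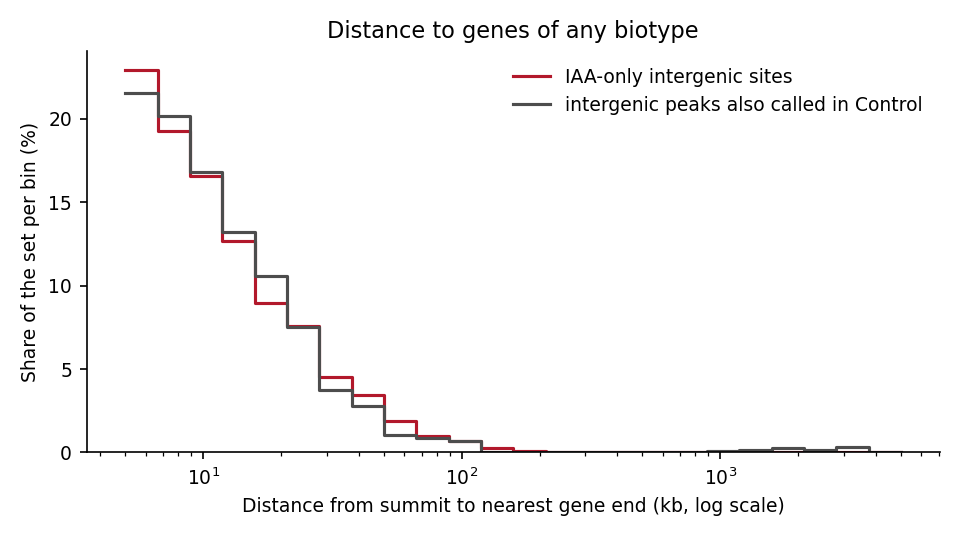
Distance of the Ser2P summit to the nearest end of a RefSeq gene of any biotype (x axis, kb, log scale) as the share of each set per bin (y axis, percent). The sites (red line) have a median of 10.1 kb and the intergenic peaks also called in Control (grey line) 10.2 kb, and both sets begin at the 5 kb limit of the rule.

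Pol II and Tyr1P overlapped a larger share of the sites at 50 to 100 kb than at 5 to 10 kb. At 5 to 10 kb Pol II overlapped 3.28% and 5.07% of the 1951 sites with IAA, against 5.18% and 7.07% in Control. At 50 to 100 kb it overlapped 8.20% and 10.7% of the 122 sites with IAA, against 13.1% and 13.9% in Control. Tyr1P overlapped 18.9% and 16.4% of the same 122 sites with IAA, against 19.7% and 20.5% in Control. In both distance classes both IAA values lay below both Control values. At the 36 sites farther than 100 kb Pol II overlapped 2.78% and 11.1% with IAA, against 8.33% and 11.1% in Control. Tyr1P overlapped 11.1% and 8.33% of these with IAA, against 13.9% and 11.1% in Control. The comparison set also rose between these classes, with Pol II in Control at 41.6% and 47.2% at 5 to 10 kb and 59.3% and 63.0% at 50 to 100 kb. At its 15 peaks farther than 100 kb the Pol II Control values were 6.67% and 13.3%.

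Strand was known for part of the genes, so the side of the gene was read only on the 15 chromosomes where at least 80% of protein-coding genes had one. There the nearest protein-coding gene had a strand at 2220 of 2631 sites (84.4%). Of these, 1173 sites lay beyond its 3′ end and 1047 before its 5′ end, which is 52.8% beyond the 3′ end (95% exact binomial interval 50.7 to 54.9). In the comparison set 390 lay beyond the 3′ end and 287 before the 5′ end, 57.6% (53.8 to 61.4). At 5 to 10 kb the counts were 413 beyond and 310 before at the sites, and 131 beyond and 59 before in the comparison set. Exact binomial intervals cover counting error only, and sites of 1 run are not independent.

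The same question was put to Pol II. For 3548 sites whose nearest protein-coding gene was at least 5 kb long, Pol II Control peaks marked only the near end in 33.2%, only the far end in 35.7%, both ends in 6.37% and neither in 24.8%. In the comparison set (1029 peaks) these shares were 28.9%, 37.7%, 4.28% and 29.2%. Sites thus faced the Pol II-marked end of a gene about as often as the other end.

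A chain of shared Ser2P IAA peaks with gaps of up to 5 kb joined 379 sites (9.61%, 95% exact binomial interval 8.71 to 10.6) to a peak inside a gene, against 8.40% (97 of 1155) in the comparison set. This share followed the gap allowed. It was 0.152% with gaps of up to 2 kb and 42.9% with gaps of up to 10 kb.

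Many sites stood in runs, chains of sites with gaps of up to 5 kb. There were 703 runs, which held 1776 sites (45.0%, 95% exact binomial interval 43.5 to 46.6), and 2168 sites stood alone. Of the runs 500 were pairs, 119 had 3 sites and 84 had 4 or more, up to 12. In the comparison set, which is smaller, 26.8% stood in runs of at most 4. A run spanned a median of 2.45 kb and at most 28.8 kb, and its gaps had a median of 1109 bp. With gaps of up to 2 kb 32.0% of sites stood in runs, and with gaps of up to 10 kb 55.8%. With Ser2P lists of equal length, which left 190 sites, 14.7% stood in runs.

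Sites in runs were not those of highest fold. In runs of 3 or more (776 sites) the median fold was 3.76 with 44 stacked fragments over a background of 10.3, against 4.58 with 21 over 3.06 at single sites. Sites in long runs thus had more fragments and a higher solved local background than single sites. Whether fragments of neighbouring sites counted into that background was not tested, so background and fold by run size are a description. The long runs lay a median of 12.3 kb from a gene, against 9.10 kb for single sites.

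Overlap with Pol II and Tyr1P differed by run size. At single sites Pol II overlapped 5.12% and 8.16% with IAA, against 10.0% and 12.6% in Control, and Tyr1P 15.2% and 13.3% with IAA, against 18.8% and 18.2% in Control. In runs of 3 or more Pol II overlapped 2.06% and 3.74% with IAA, against 1.55% and 2.32% in Control, and the groups overlapped. Tyr1P there overlapped 9.02% and 6.44% with IAA, against 5.54% and 5.80% in Control, and the groups did not overlap. At equal list length the runs of 3 or more gave Pol II 2.06% and 1.93% with IAA, against 0.644% and 0.515% in Control, and Tyr1P 7.99% and 6.44% with IAA, against 3.61% and 4.25% in Control. This split was chosen after its values were seen and gets no test. The order of IAA and Control in long runs rests on single Ser2P libraries. The differences were 0.97 and 2.06 percentage points for Pol II and Tyr1P, but -0.21 and -0.12 without Ser2P IAA replicate 2 in the rule, and -1.54 and -0.97 without Ser2P Control replicate 1.

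**Figure D4:**
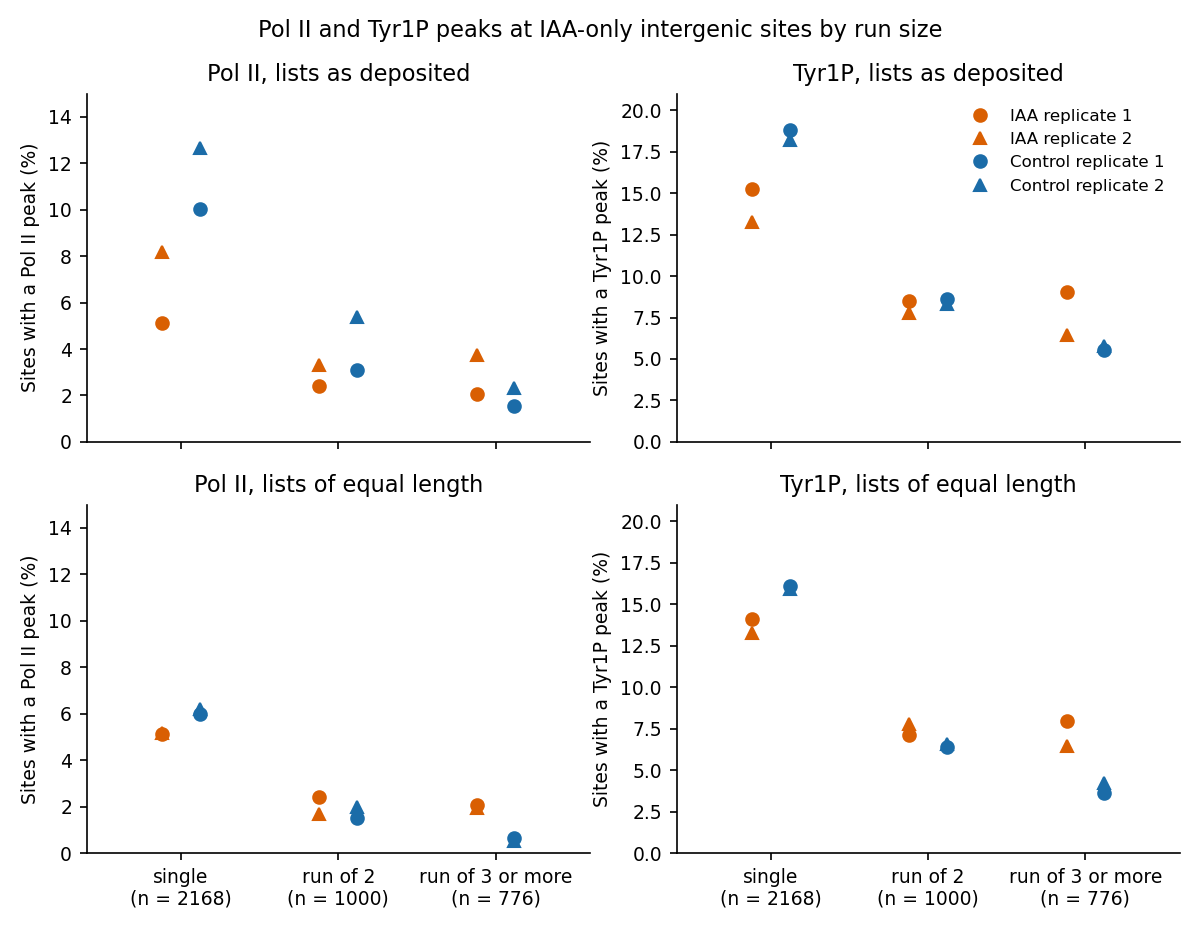
Share of sites with an overlapping Pol II or Tyr1P peak (y axis, percent) in each numbered IAA and Control library (points, circles for replicate 1 and triangles for replicate 2), with lists as deposited (top) and of equal length (bottom), by whether the site stood alone, in a run of 2 or in a run of 3 or more. Single sites lie lower with IAA than in Control for both antibodies, and in runs of 3 or more Tyr1P of the deposited lists lies at 9.02% and 6.44% with IAA and at 5.54% and 5.80% in Control.

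The run with the most sites lay at chr2:64700600-64729359 and held 12, with folds of 3.16 to 8.49 in IAA replicate 1 and 3.49 to 7.86 in replicate 2. It stood between RPS10P9, a ribosomal protein pseudogene 34.5 kb to its left, and the lncRNA LOC105374777, 27.6 kb to its right. No site of the run had a Pol II or Tyr1P peak in any of the 12 libraries. The whole stretch between these genes, 90.9 kb long, held 23 sites, the most of any. The nearest protein-coding genes were LOC124907776, 45.5 kb to the left, and SLC1A4, a transporter of neutral amino acids, 259 kb to the right.

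At chrX:45783162-45810011 a run of 9 lay 12.9 kb from MIR222HG, the host gene of miR-221 and miR-222, with folds of 3.04 to 9.07. A single site of this run had a Tyr1P peak in both Control libraries, and none had a numbered Pol II peak. Between its sites the span held 1 and 2 Pol II peaks with IAA, against 0 and 0 in Control, and 2 Ser2P peaks of Control replicate 1. Its stretch of 77.8 kb held 17 sites. At chr17:72372176-72396916 a run of 10 lay between LINC02003 and LINC00673, 17.0 and 6.41 kb away, with SOX9, a developmental transcription factor, 246 kb to the left. Pol II overlapped 2 of these 10 sites in Control replicate 2 and none in the other numbered Pol II libraries. Between them stood a Ser2P peak also called in Control.

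The remaining named runs lay nearer to protein-coding genes. At chr16:69397392-69414586 a run of 9 stood between TERF2, a telomere-binding protein, and CYB5B, a cytochrome b5 of the outer mitochondrial membrane, 11.4 and 10.0 kb away, with folds of 2.33 to 4.60. Pol II overlapped 1 and 2 of these sites with IAA and 0 in both Control libraries. The span of the run as a whole held 3 and 6 Pol II peaks with IAA, against 5 and 5 in Control, so Pol II was called within it in both groups. Ser2P Control peaks, 2 and 3 of them, also lay inside the span, between the sites. At chr8:8274136-8294308 a run of 10 lay 23.4 kb from PRAG1, a pseudokinase gene, with Pol II at 1 site in each IAA library and at 0 in Control, and Tyr1P at 3 and 1 sites with IAA, against 1 and 0 in Control. At chr8:143894741-143906299 a run of 8 lay 15.5 kb from EPPK1 and 8.85 kb from PLEC, which encode the cytolinkers epiplakin and plectin. Its folds of 2.03 to 3.75 stood on stacks of 74 to 174 fragments, and Tyr1P overlapped 3 and 2 of its sites with IAA, against 2 and 2 in Control.

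**Figure D5:**
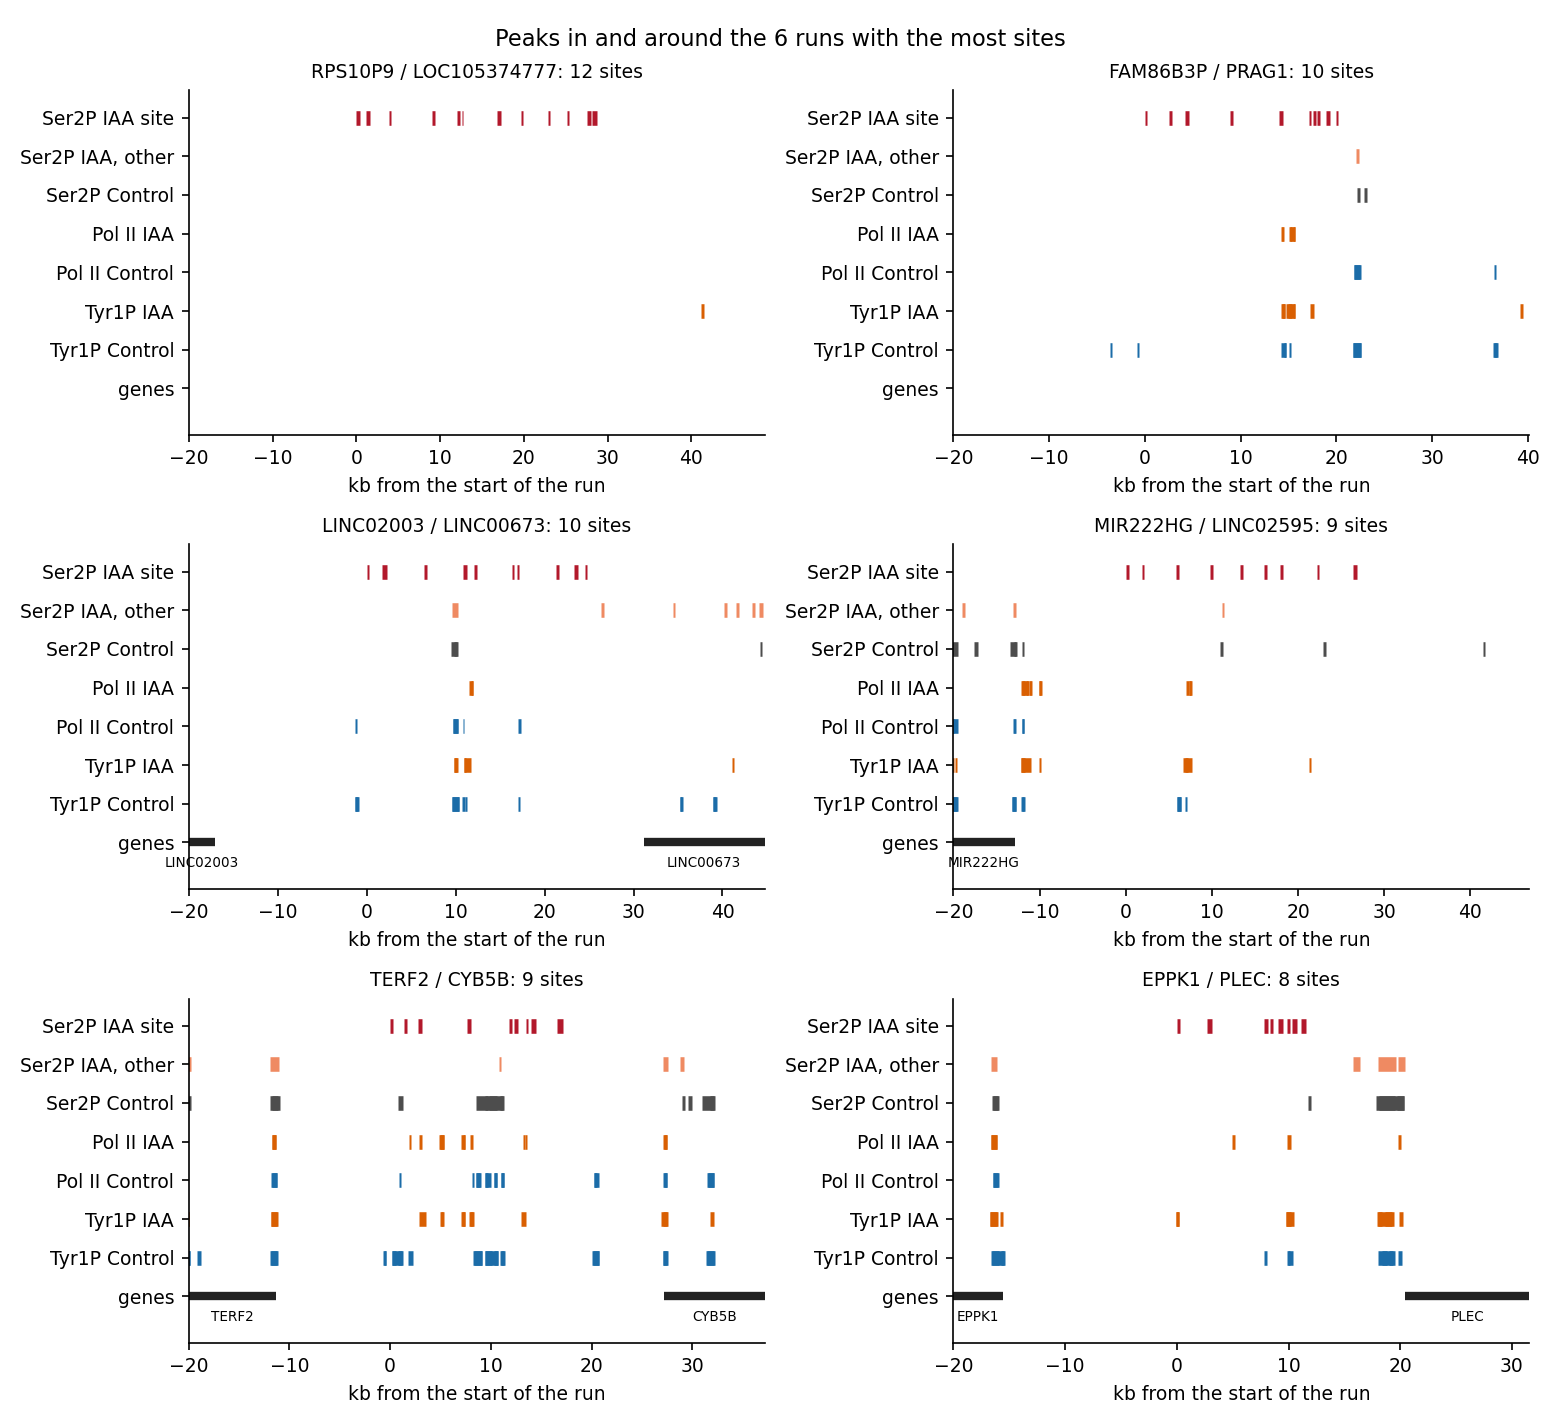
Peaks in and around the 6 runs with the most sites, by distance from the start of the run (x axis, kb), with each row drawing the peaks of either numbered library of an antibody and group, to scale. The run of 12 sites beside RPS10P9 has no Pol II or Tyr1P peak within its span, and the runs by TERF2, LINC00673 and MIR222HG hold Ser2P Control peaks between their sites; genes outside the window are not drawn.

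Sites also gathered around a few annotated genes. RPS10P9 and MIR5702 were each nearest to 13 sites, LOC105373888 to 12, and LOC107984402, PRAG1 and MIR378D2HG to 11 each. Around MIR5702 the sites had folds of 3.93 to 14.2 and lay 5.61 to 80.8 kb away. By chromosome, the sites numbered 38 on chromosome 21 to 373 on chromosome 2, and made up 3.59% of the shared Ser2P peaks on chromosome 19, the lowest, and 7.87% on chromosome 8, the highest. Of 19411 stretches over 10 kb between genes, 2230 held a site, and 120 with 5 or more held 857 sites (21.7%).

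When the 4 Ser2P lists were cut to the same length by p, 15377 peaks each, the rule found 190 sites, of which 117 were among the 3944. At these 190, Pol II overlapped 21.1% and 26.3% with IAA, against 22.1% and 25.8% in Control, and the groups overlapped. Tyr1P overlapped 46.3% and 41.6% with IAA, against 33.7% and 33.7% in Control, a difference of 10.3 percentage points, with both IAA values above both Control values and the direction opposite to that of all sites (exact permutation p = 0.333, the smallest possible). Leaving out any 1 Ser2P library loosens the rule, and with the deposited lists it gave 3963 to 6629 sites, the most without IAA replicate 2. The number of sites thus depends on the length of the Ser2P lists and on how many libraries the rule requires.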

How the data were processed

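ChIP-seq peak lists of 18 libraries were used, 16 immunoprecipitated and 2 input. The submitters' processing notes name MACS2 2.2.7.1, Bowtie2 2.3.4.1, Trim Galore 0.6.6, deepTools 3.5.1 and Picard 2.25.7, with build hg38. Not given in the sources used here were the options of these tools and whether input was used in peak calling. There is 1 deposited list for every library, called separately. The authors' columns are a score, a fold enrichment (ratio), −log10 p and −log10 q, and the summit offset as another value.

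Here peaks on chromosomes 1 to 22 and X were intersected (minimum 1 bp) and set against 59094 RefSeq genes on GRCh38. Gene strand came from RefSeq promoter and miRNA tables. The deposited lists hold no read totals. Stacked fragments and local background were therefore solved from fold and −log10 p, within a relative tolerance of 0.0002, and the lowest background per shortest peak width gave depth. Overlap shares were compared by two-sided exact permutation over libraries. Scripts were tested on simulated data. Python 3.11.15, NumPy 2.4.6, SciPy 1.17.1, pandas 2.3.3 and Matplotlib 3.10.9 were used.

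Sites, lists and settings were chosen with earlier results of these data known. Named were the 6 runs with the most sites, the 6 sites of highest fold, the 4 strongest gained sites per antibody, the 3 peaks on each side of the limit and the 6 genes nearest to the most sites. Alternatives were other distances, gene sets, thresholds, overlaps and gaps, lists of equal length, left-out libraries and a replicate block. Equal Pol II and Tyr1P lists, matched strength and the settings for long runs were added after seeing the data.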

Additional observations from a re-analysis of the deposited data

How the results depend on the processing

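Over 10 kb outside genes there were 1993 sites, with 46.8% in runs, a median distance of 17.2 kb and 2.36% linked to a gene. Over 2 kb outside there were 6512 sites, at 6.23 kb, with 18.8% linked and a Pol II difference under IAA from the comparison set of -14.7 percentage points. With protein-coding genes only there were 9125 sites, with -31.4, 50.1% in runs, 20.6 kb and 6.75% linked. A −log10 q of at least 5 left 41.1% in runs. With Ser2P lists of equal length there were 190 sites, with -29.6, 14.7% in runs, 9.47 kb, 4.21% linked, and a Tyr1P difference between IAA and Control of 10.3 percentage points, the reverse of -2.00. The cause was not tested. Gaps of up to 2 kb gave 32.0% in runs and 0.152% linked, and gaps of up to 10 kb 55.8% and 42.9%. Matched strength, added after seeing the data, gave -12.3 with only 70 peaks in the comparison set.

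Leaving out each Ser2P library in turn gave 3963 to 6629 sites (the highest without IAA replicate 2), 45.2% to 50.6% in runs, medians of 10.1 to 10.5 kb and 9.29% to 10.9% linked. Leaving out Ser2P or Pol II libraries gave a difference from the comparison set of -31.4 to -21.6 percentage points. In runs of 3 or more, leaving out any 1 library, added after seeing the data, gave IAA minus Control differences of -1.54 to 1.80 for Pol II and -0.97 to 3.35 for Tyr1P, reversed without Ser2P IAA replicate 2 (-0.21 and -0.12) and without Ser2P Control replicate 1.

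The replicate block gave the same differences, -2.74 for Pol II and -2.00 for Tyr1P, at an exact permutation p of 0.5, the smallest it allows. It was run on these differences alone. Correlations of same-numbered deviations were 0.04 for Pol II and -0.02 for Tyr1P, below the 0.1 taken as a sign of pairing, so the numbers were not used to pair libraries; this was not computed for Ser2P. Ser2P Control replicate 2 and Pol II Control replicate 1 were the shallowest of their antibody, and the part of depth in the calls was not tested.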
